A study of Mus musculus with 96 samples.

Results

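The proteasome genes of mouse were followed through 48 single embryonic stem (ES) cells. Rows of the count table were taken by symbol, as Psm, a letter from a to g and a number, without pseudogenes, and 49 of 23284 rows matched. Of these, 48 reached a mean of 10 reads with both lanes summed. Psmb11, which encodes a subunit of the thymus proteasome, missed that bound with 0.67 reads per cell. Just above it lay Psmb8 with 13.6 reads per cell and Psmb9 with 18.9 reads per cell. Psmc3ip shares the prefix but encodes a factor of meiotic recombination and no proteasome subunit, so its values are given apart. The other 47 genes were divided into 15 core genes (Psma and Psmb without the immune subunits), 20 cap genes (Psmc and Psmd), 3 immune subunits (Psmb8, Psmb9 and Psmb10), 5 genes of activators and an inhibitor (Psme1 to Psme4 and Psmf1) and 4 assembly chaperones (Psmg1 to Psmg4).

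The cells were J1 ES cells, a line from strain 129 mice, kept without feeder cells in medium with fetal bovine serum and leukaemia inhibitory factor (LIF), at passage 12 to 20. Each cell was lysed on a microfluidic chip, its messenger RNA was copied and amplified, and its library was read on 2 lanes, which gave 96 samples. All cells form 1 group with no treatment, mutant or time point to compare, and the labels name no separate cultures, so p-values measure only scatter among these cells and genes. A cell had between 4408953 and 9767245 reads in genes.

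The proteasome degrades proteins that carry ubiquitin chains. Its barrel, the core particle, is built of an outer ring of alpha subunits and an inner ring of beta subunits, each present as a pair, and 3 of the beta subunits hold the active sites. The cap, or regulatory particle, uses a ring of ATPases and a set of non-ATPase subunits to bind ubiquitin, remove it and feed the substrate into the barrel. Cells exposed to interferon replace the catalytic subunits with immune subunits, whose products favour peptides for class I presentation, and chaperones help to assemble both particles. Human ES cells are known for high proteasome activity, which falls as they differentiate.

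Promoters of catalytic subunits and of immune subunits are shown first for reference, and a link between their motifs and the levels below was not tested. Psmb5 carries the chymotrypsin-like site, Psmb6 the caspase-like site, and Psmb8 and Psmb9 are the immune subunits that take their places. Each line gives the 250 bases before the transcription start, 5′ to 3′ in the direction of the gene, from RefSeq on GRCm38.p6. Capitals mark the searched motif found there: the antioxidant response element core TGACNNNGC in Psmb5 and Psmb6, the gamma-activated site TTCNNNGAA in Psmb8, and the CCAAT box, on the other strand, in Psmb9. The windows are chr14:54617996-54618245 on the minus strand for Psmb5, chr11:70525107-70525356 on the plus strand for Psmb6, chr17:34197945-34198194 on the plus strand for Psmb8 and chr17:34187331-34187580 on the minus strand for Psmb9.
Psmb5: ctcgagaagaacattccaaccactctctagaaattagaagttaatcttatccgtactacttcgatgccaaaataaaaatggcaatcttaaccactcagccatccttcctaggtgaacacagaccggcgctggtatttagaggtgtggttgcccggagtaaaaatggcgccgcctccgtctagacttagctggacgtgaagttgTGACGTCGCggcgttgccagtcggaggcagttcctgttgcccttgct
Psmb6: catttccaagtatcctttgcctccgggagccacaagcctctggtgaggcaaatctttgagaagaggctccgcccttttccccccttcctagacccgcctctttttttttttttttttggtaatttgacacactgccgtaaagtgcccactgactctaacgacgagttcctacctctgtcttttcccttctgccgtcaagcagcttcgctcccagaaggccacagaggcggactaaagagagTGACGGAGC
Psmb8: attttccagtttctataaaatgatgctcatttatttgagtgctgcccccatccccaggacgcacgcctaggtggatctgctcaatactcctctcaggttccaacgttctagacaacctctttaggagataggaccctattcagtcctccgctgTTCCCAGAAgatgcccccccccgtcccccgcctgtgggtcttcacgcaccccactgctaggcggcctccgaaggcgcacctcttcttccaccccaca
Psmb9: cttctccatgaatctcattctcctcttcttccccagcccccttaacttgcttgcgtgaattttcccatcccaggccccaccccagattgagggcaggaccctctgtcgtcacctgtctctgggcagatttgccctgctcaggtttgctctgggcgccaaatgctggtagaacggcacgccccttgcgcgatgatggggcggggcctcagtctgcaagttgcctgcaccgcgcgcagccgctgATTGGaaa

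RefSeq's promoter table held 40 of the 48 genes that remain with Psmb11 and without Psmc3ip. Over both strands of these windows, TGACNNNGC, the core of the element bound by Nfe2l1 and Nfe2l2, was found in 5 of 40 proteasome promoters (12.5%), against 11.5% of 27025 promoters of all genes. These 5 were Psmb5, Psmb6, Psmc6, Psmd9 and Psmd12. CCAAT was found in 14 (35.0%, against 37.5% of all promoters), the ETS-type site ACTTCCGG in 5 (12.5% against 3.23%), the palindromic nuclear respiratory factor 1 site in 1 (2.50% against 0.877%) and TTCNNNGAA in 2 (5.00% against 8.13%), which were Psmb8 and Psmg1. None of the 5 motifs contains another, and a match is a description of letters, not of binding.

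Before the results, the libraries of cells 11 and 12 need a remark, because several values below rest on them. Of 25 genes with at least 20 reads in cell 11 and under 5 reads in each of the 46 other cells, 24 (96.0%) had at least 5 reads in cell 12. In the other direction it was 18 of 42 genes (42.9%). The next highest share was 25.0%, or 3 of 12 genes, where pairs with few such genes were left out. The read ratio of cell 11 to cell 12 over those 24 genes had a median of 2.31 and quartiles of 1.97 and 2.57. Of 378 genes with at least 20 reads in exactly 2 cells and under 5 reads in each other cell, cells 11 and 12 shared 17, against at most 4 in any other pair. Cell 12 also had reads in the most genes, 10291 against 9759 in the next cell. Both cells belong to the naive-like cluster described below. Values of the immune subunits are given with and without these cells, and some other values without cell 12 or without both. Among other genes, the highest values of Psmb7 and Psmg3 came from cell 11 and are given only with it. This check of the libraries was made after the immune subunits had been examined, and the cause of the sharing was not tested.

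Proteasome genes took 1.49 ± 0.240% of all reads in a cell (SD, n = 48), with a lowest value of 0.887%, a median of 1.47% and a highest of 1.95%. Core genes accounted for 0.685 ± 0.106% and cap genes for 0.679 ± 0.131%. Of the 47 genes, 40 had a read in every cell. With all cells thinned to 4408953 reads and at least 5 reads asked for, 34 genes were detected in every cell: 14 of 15 core genes, 16 of 20 cap genes, 4 of 5 activator or inhibitor genes, and none of the immune subunits or chaperones. Levels below are in CPM, read counts relative to a scaled library total, and comparisons of levels between genes are in CPM per kb of exon.

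The alpha ring, which gates the barrel, was expressed in all cells. Its 7 standard genes, Psma1 to Psma7, had mean levels between 402 CPM (Psma5) and 622 CPM (Psma6), and each was detected in all 48 cells. Psma6 had 205 CPM in the lowest cell, 612 CPM in the median cell and 1506 CPM in the highest. Psma3 had 134 CPM in the lowest cell, 380 CPM in the median cell and 723 CPM in the highest, so its most and least loaded cells lay 5.41-fold apart. Per kb of exon the ring spanned 142 (Psma3) to 542 CPM (Psma6), a 3.82-fold range, which narrowed to 1.60-fold per kb of coding sequence, a scale added after the values were seen.

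Psma8, which encodes the testis form of the subunit made by Psma7, was the exception among the alpha genes. It had no read in 18 cells, a median of 2.70 CPM and a highest value of 181 CPM, and was detected in 25 of 48 thinned cells (52.1%, exact Clopper-Pearson 95% interval 37.2 to 66.7%, for counting error only). At least 10 CPM was reached in 2 of 13 endoderm-like cells and 18 of 35 naive-like cells. Across the naive-like cells its ranks ran against those of most other core and cap genes, with a median Spearman correlation of -0.17, the lowest among the proteasome genes. In 11 of these 35 cells Psma8 had no read, so their ranks are tied, and the value was not computed under other scaling.

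The beta ring was less even than the alpha ring. Psmb6 had the highest mean of all proteasome genes, 999 ± 462 CPM (SD, n = 48), with 286 CPM in the lowest cell, 859 CPM in the median cell and 2380 CPM in the highest. Psmb2 and Psmb1, structural subunits without an active site, averaged 658 ± 194 CPM and 628 ± 198 CPM. These 2 genes had the lowest coefficients of variation of the 47, 0.295 for Psmb2 and 0.315 for Psmb1. Psmb2 had 305 CPM in the lowest cell, 622 CPM in the median cell and 1281 CPM in the highest, and no cell stood apart.

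The catalytic subunits were expressed at unequal levels. Psmb7, the trypsin-like subunit, had 82.9 CPM in the lowest cell, 315 CPM in the median cell and 793 CPM in the highest. Psmb5, the chymotrypsin-like subunit, was the lowest standard core gene, with 4.22 CPM in the lowest cell, 71.4 CPM in the median cell and 223 CPM in the highest. Per kb of exon, Psmb6 averaged 1252 CPM, Psmb7 299 CPM and Psmb5 86.8 CPM. The promoters of Psmb6 and Psmb5 printed above both hold TGACNNNGC, and its part in their levels was not tested. The 14.4-fold range between Psmb6 and Psmb5 was also the range of the whole beta ring, and it was 14.2-fold per kb of coding sequence. Reads of Psmb7 may include reads of Nek6, which overlaps it on the other strand in the annotation, since the kit does not mark strand. Psmb5 overlaps the microRNA gene Mir686 on the same strand. How reads in that overlap were counted is not given, and its effect on the level of Psmb5 was not tested.

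**Figure D1:**
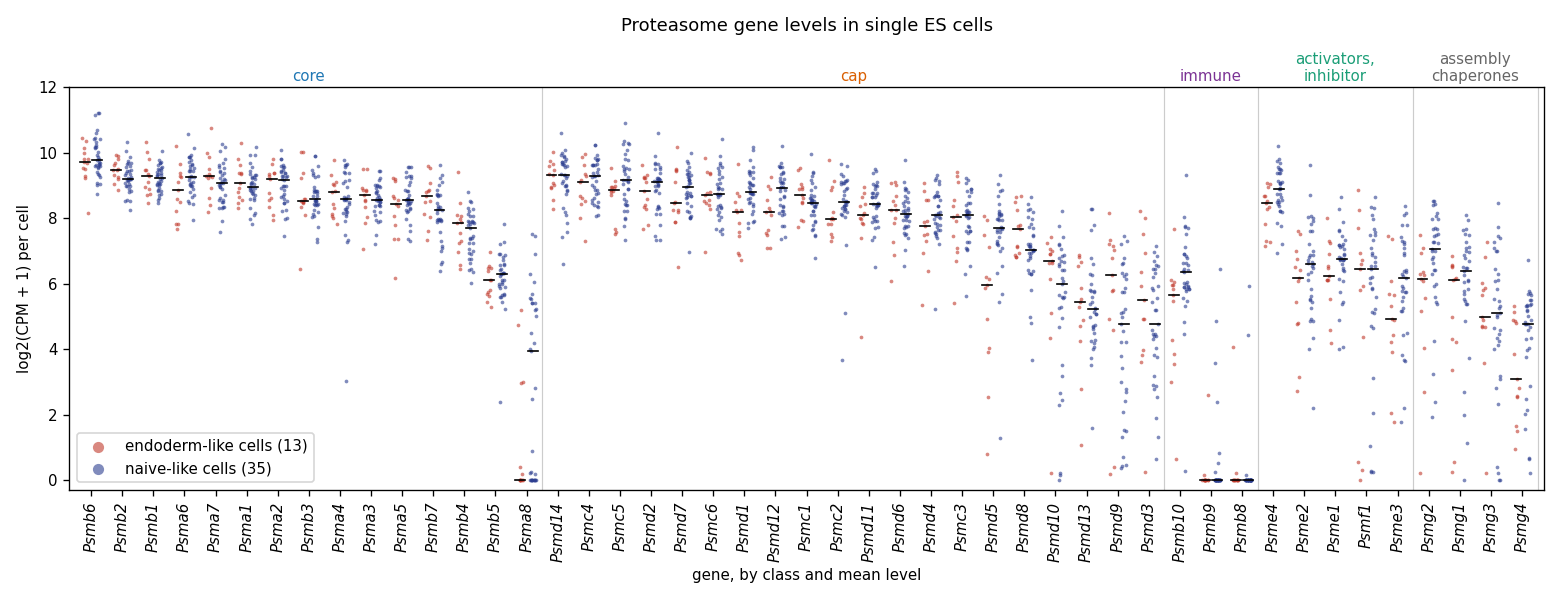
Levels of the 47 proteasome genes in each of 48 cells, as log2(CPM + 1) on the y axis, with genes on the x axis by class and falling mean level; red points are the 13 endoderm-like cells, blue points the 35 naive-like cells, and black lines the medians. Most core and cap genes lie in a band above 6 in nearly every cell, while Psma8, Psmb8 and Psmb9 sit at or near 0 in many cells.

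The ATPases, which unfold the substrate, were all detected in the 48 thinned cells. Psmc1 to Psmc6 averaged between 288 CPM (Psmc3) and 602 CPM (Psmc4), and per kb of exon between 141 CPM (Psmc3) and 456 CPM (Psmc5), a 3.23-fold range, which was 2.31-fold per kb of coding sequence. Psmc3 overlaps Slc39a13 on the other strand, and those reads cannot be told apart either. Psmc5 had 162 CPM in the lowest cell, 505 CPM in the median cell and 1907 CPM in the highest.

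The 14 non-ATPase genes of the cap spanned more. Psmd14, the deubiquitinase of the cap, averaged 641 ± 280 CPM (SD, n = 48), with 96.9 CPM in the lowest cell, 638 CPM in the median cell and 1545 CPM in the highest. Per kb of exon, Psmd14 (416 CPM) was followed by Psmd7 (310 CPM), its partner, and by Psmd6 (226 CPM), a structural subunit. At the low end per kb of exon were Psmd13 (30.5 CPM), Psmd3 (26.0 CPM) and Psmd9 (21.9 CPM). Psmd9, Psmd5 and Psmd10 are known as chaperones that assemble the ATPase ring and leave the finished cap, whereas Psmd3 and Psmd13 are structural subunits. The range between Psmd14 and Psmd9 was 19.0-fold; per kb of coding sequence Psmd3 was the lowest. Psmd13 overlaps Sirt3 on the other strand.

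The activators dock on the barrel in place of the cap. Psme1 and Psme2 form the interferon-responsive activator PA28, and had medians of 106 CPM and 88.8 CPM with highest values of 400 CPM and 783 CPM. Psme3, which makes the nuclear form of that activator, had 2.45 CPM in the lowest cell, 53.0 CPM in the median cell and 334 CPM in the highest. Psme4, a large nuclear activator linked to acetylated histones, had 122 CPM in the lowest cell, 418 CPM in the median cell and 1174 CPM in the highest. Psmf1, an inhibitor of the core particle in the test tube, had no read in 1 cell, 86.0 CPM in the median cell and 465 CPM in the highest. Per kb of exon, the means were 121 CPM for Psme2, 104 CPM for Psme1, 71.3 CPM for Psme4, 31.4 CPM for Psme3 and 28.1 CPM for Psmf1. Not divided by length, the mean of Psme2 was 119 CPM, and 101 CPM without cells 11 and 12. That of Psme1 was 115 CPM, and 113 CPM without them.

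Each chaperone of the core particle was missed in at least 1 thinned cell, and per kb of exon their means lay between 44.3 CPM (Psmg4) and 99.5 CPM (Psmg2). Psmg1 and Psmg2, which pair to start the alpha ring, had medians of 70.3 CPM and 110 CPM and were detected in 44 and 47 thinned cells. Psmg3 and Psmg4, which form another pair, had medians of 32.6 CPM and 26.3 CPM and were detected in 43 and 45 thinned cells. The highest cell had 273 CPM of Psmg1, 368 CPM of Psmg2, 355 CPM of Psmg3 and 104 CPM of Psmg4.

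Reads of the immune subunits Psmb8 and Psmb9, whose promoters on chromosome 17 are shown above, were found in 5 and 9 of the 48 cells, while Psmb10 was read in all 48. Psmb8 had 364 reads (59.9 CPM) in cell 11, 165 reads (20.6 CPM) in cell 12, 120 reads (15.6 CPM) in cell 41 and 1 read each in cells 23 and 38. It was detected in 3 of 48 thinned cells (exact 95% interval 1.31 to 17.2%), and without cells 11 and 12 in 1 of 46 (0.0550 to 11.5%). Psmb9 had 521 reads (85.8 CPM) in cell 11, 224 reads (28.0 CPM) in cell 12, 77 in cell 36, 40 in cell 13 and 35 in cell 23, and at most 5 reads in the 4 other cells with any. It was detected in 5 of 48 thinned cells (exact 95% interval 3.47 to 22.7%), and without cells 11 and 12 in 3 of 46 (1.37 to 17.9%). The mean level was 2.01 CPM for Psmb8 and 2.82 CPM for Psmb9, which rested on cell 11. Without cell 11 the means were 0.78 CPM for Psmb8 and 1.06 CPM for Psmb9, without cell 12 they were 1.61 and 2.28 CPM, and without both 0.35 and 0.47 CPM.

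At least 5 reads of both genes were found in 2 cells, 11 and 12, of Psmb8 alone in 1 cell and of Psmb9 alone in 4 cells. The libraries of these 2 cells share reads of genes found in few or no other cells, so they may not be separate observations, and without them no cell had 5 reads of both. Their read ratio was 2.21 for Psmb8 and 2.33 for Psmb9, next to the median of 2.31 above. The transporter gene Tap1, which lies beside Psmb9 and overlaps it on the other strand, had reads in 3 cells, 15, 6 and 10, and none of these had 5 or more reads of Psmb8 or Psmb9.

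Psmb10, which replaces Psmb7, had 0.21 CPM in the lowest cell, 62.2 CPM in the median cell and 644 CPM in the highest, which was cell 11. In cell 12 it had 211 CPM, rank 4 from the top. Psme2 was also highest in cell 11, with 783 CPM, and had rank 3 in cell 12, with 270 CPM. Psme1 had rank 4 in cell 11, with 234 CPM, and rank 22 in cell 12, with 108 CPM.

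Set against the subunit it replaces, Psmb10 was a sizeable minority and the other immune subunits were traces. Per kb of exon, Psmb10 made up 19.1% of the Psmb10 and Psmb7 sum of means, Psmb8 1.4% of the Psmb8 and Psmb5 sum and Psmb9 0.166% of the Psmb9 and Psmb6 sum. Per kb of coding sequence the shares were 21.3%, 2.40% and 0.306%. Per kb of exon and without cells 11 and 12, they were 17.0% for Psmb10, 0.241% for Psmb8 and 0.0277% for Psmb9. Within cells the share of Psmb10 had a lowest value of 0.0337%, a median of 16.4% and a highest of 51.1%, and it was above Psmb7 in 1 of 48 cells. Its median was 9.46% in endoderm-like cells and 21.2% in naive-like cells.

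**Figure D2:**
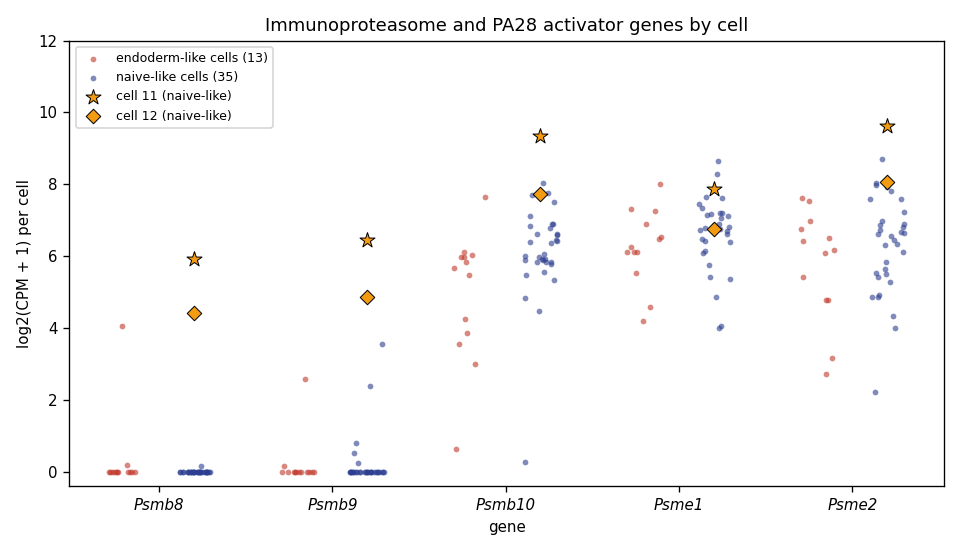
Immune subunits Psmb8, Psmb9 and Psmb10 and activator genes Psme1 and Psme2 in each cell, as log2(CPM + 1) on the y axis; red points are the 13 endoderm-like cells, blue points naive-like cells, and the star and the diamond mark cells 11 and 12. Psmb8 and Psmb9 are at or near 0 in most cells, and cell 11 is the highest for Psmb8, Psmb9, Psmb10 and Psme2.

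Whether any proteasome gene varied more between cells than genes of like mean level was tested with the modelGeneVar function of scran, as a one-sided test over 11746 genes, with Benjamini-Hochberg adjusted p-values and a threshold of 0.05. None of the 47 genes was called, against 2.03% of all genes tested. At an unadjusted p under 0.05 there were 3, against 5.24% of all genes, and a test on the squared coefficient of variation also called 0, against 6.22% of all genes. The lowest adjusted p by modelGeneVar was that of Psmd5, 0.183 (unadjusted 0.00508), followed by Psmf1 with 0.429 and Psma4 with 0.822. Psmc3ip was not called either, with an adjusted p by modelGeneVar of 0.906.

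Farthest above the trend in variance of log2(CPM + 1) were Psmf1 (6.53 against a trend of 3.49), Psmd5 (3.42 against 1.68) and Psma8 (7.14 against 5.96). Psmd5 had 0.73 CPM in the lowest cell, 190 CPM in the median cell and 645 CPM in the highest, and only 2 thinned cells lacked it. Farthest below were Psmg4 (2.70 against 5.66), Psmb5 (0.61 against 2.70) and Psmd13 (2.12 against 3.97). The variance was below the trend in 33 of 47 proteasome genes, against 49.4% of all genes tested, and in 12 of 15 core and 13 of 20 cap genes. Among genes with a mean of at least 8 on the log2 scale, a bound chosen after seeing the data, it was below in 20 of 26 proteasome genes and in 52.8% of 599 genes.

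**Figure D3:**
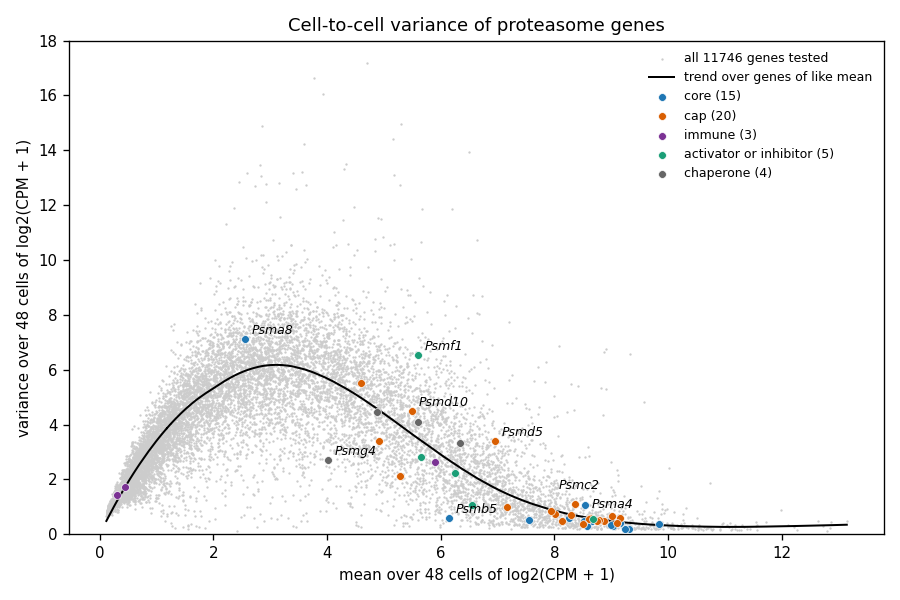
Variance over 48 cells of log2(CPM + 1) on the y axis against the mean of the same values on the x axis; grey points are all 11746 genes tested, coloured points the 47 proteasome genes by class, and the line is the trend over genes of like mean. Psmf1, Psmd5 and Psma8 lie farthest above the line, Psmg4 and Psmb5 far below it, and no proteasome gene was called.

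Among the 35 naive-like cells alone, modelGeneVar called Psma4 (variance 1.34 against a trend of 0.56, adjusted p 0.00906) and Psmc2 (1.30 against 0.58, adjusted p 0.0365), against 1.75% of all genes. Both calls rested on cell 44, and Psma4 overlaps AY074887 on the other strand, so reads of that gene may be included. It had 34 reads or 7.18 CPM of Psma4, where the next lowest cell had 153 CPM, and 11.8 CPM of Psmc2, where the next lowest had 33.2 CPM. Without cell 44 the number called was 0, with 4 genes at an unadjusted p under 0.05, and without cell 12 both calls were made.

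Low values of several genes fell in the same cells. Cell 44 was also the lowest for Psmb5, with 20 reads, for Psmb10, with 1 read, and for Psmg1, with none, and its share of proteasome reads was 0.954%. Cell 3, which had the lowest share of all (0.887%), was the lowest cell for 8 of the 34 core and cap genes other than Psma8, and the highest for 2 of them. Cell 32, with 1.01%, was the lowest for 6. These 3 cells had 6127719, 7480064 and 8619705 reads in the order named, within the range of the others, and cell 44 had reads in the fewest genes, 8039. Together they were the lowest for 18 of the 34 genes, and no other cell for more than 3. Highest values were more scattered, with at most 4 genes in 1 cell, cell 38.

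The cells were divided into 2 clusters without use of proteasome genes. The smaller, of 13 cells, is called endoderm-like: its 13 primitive endoderm markers summed to 11038 to 44299 CPM per cell, against 53.0 to 1487 CPM in the larger cluster. Gata6, Pdgfra and Dab2 were detected in 13 of 13 cells, and in 1, 2 and 8 of the 35 other cells. In the smaller and larger cluster, Gata4 was detected in 12 and 1 cells, Sox17 in 11 and 0, Sox7 in 9 and 0 and Foxa2 in 7 and 0. Col4a1 was detected in 13 and 32 cells, Col4a2 in 13 and 22, Lama1 in 13 and 32 and Lamb1 in 13 and 30. Lamc1 and Sparc were detected in all cells of both. The larger, of 35 cells, is called naive-like: its 13 naive pluripotency markers summed to 469 to 6035 CPM, against 187 to 1667 CPM in endoderm-like cells. Pou5f1 was detected in 8 of 13 endoderm-like and 35 of 35 naive-like cells, and Nanog in 9 and 35. Esrrb was detected in 7 endoderm-like and 34 naive-like cells, Sox2 in 8 and 35, and Klf2 in 7 and 34. Dppa3 was detected in 6 and 32, Tcl1 in 3 and 28, Nr0b1 in 6 and 29, and Prdm14 in 2 and 20. Zfp42 (13 of 13 endoderm-like and 35 of 35 naive-like cells), Klf4 (12 and 31), Tfcp2l1 (11 and 34) and Tbx3 (13 and 21) were detected in most cells of both clusters. Zfp42 had 3.46 to 852 CPM in endoderm-like cells, against 109 to 4467 CPM in naive-like cells. Of primed epiblast markers, Dnmt3b was detected in 13 endoderm-like and 35 naive-like cells, Otx2 in 8 and 27, Pou3f1 in 1 and 8 and Fgf5 in 0 and 3. Their sum was 46.8 to 1042 CPM in endoderm-like cells and 7.23 to 1923 CPM in naive-like cells. Of other cell types, the trophoblast markers Gata3 (4 endoderm-like and 6 naive-like cells) and Eomes (2 and 7) and the mesoderm marker Mixl1 (2 and 4) were detected in some cells. The leukocyte marker Cd74 was detected in 2 naive-like cells, and the fibroblast markers Col1a1 in 0 and 2, Col1a2 in 1 and 0 and Thy1 in 0 and 1. Cdx2 of trophoblast, T of mesoderm, Zscan4c of 2-cell-like cells and Ptprc of leukocytes had 0 reads. Endoderm-like cells had 7890570 ± 852017 reads (SD, n = 13) and naive-like cells 6858230 ± 1269180 (SD, n = 35), and the part of this gap in the differences below was not tested. All cells form 1 group, counted as 1 sample, so the clusters were compared without a test.

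Proteasome genes took 1.36 ± 0.234% of reads in endoderm-like cells (SD, n = 13) and 1.54 ± 0.226% in naive-like cells (SD, n = 35). Cap genes took 0.597 ± 0.136% against 0.710 ± 0.118%, and core genes 0.669 ± 0.105% against 0.691 ± 0.107%. The ratio of mean core to mean cap level, per kb of exon, was 2.40 ± 0.389 in endoderm-like cells and 2.10 ± 0.335 in naive-like cells, with ranges that overlapped (1.91 to 3.21 and 1.54 to 2.82). Differences for single genes are given as endoderm-like minus naive-like means of log2(CPM + 1), and their median over all genes tested was -0.15. The class medians were 0.02 for core genes, -0.19 for cap genes, -0.33 for immune subunits, -0.56 for activators and inhibitor and -0.98 for chaperones. The immune median was the difference of Psmb9. Without cells 11 and 12 the differences were 0.32 for Psmb8, -0.02 for Psmb9 and -1.19 for Psmb10. The core median was -0.03 under library size scaling and -0.003 in lane 1 alone, so its sign depended on the setting.

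Past 1 log2 unit there were 6 proteasome genes with lower means in endoderm-like cells, against 16.5% of all genes, and 1 with a higher mean, against 15.9%. The ranges of the clusters overlapped in all 47 genes, as in nearly all genes tested: 0.196% had none. With a pseudocount of 10 CPM there were 2 lower (Psmd5 and Psmb10), against 5.33% of all genes, and 0 higher, against 7.55%. The widest difference was that of Psmd5, the ATPase ring chaperone, at -2.06: it had 0.73 CPM in the lowest, 61.3 CPM in the median and 265 CPM in the highest endoderm-like cell, against 1.44, 207 and 645 CPM in naive-like cells. Cells above 265 CPM of Psmd5 were all naive-like, and low cells were found in both clusters.

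Psmb10 differed by -1.33, with 0.55 CPM in the lowest, 49.9 CPM in the median and 201 CPM in the highest endoderm-like cell, against 0.21, 81.2 and 644 CPM in naive-like cells, and by -1.19 without cells 11 and 12. Psma8 differed by -1.77, with a median of 0 CPM and a highest value of 35.3 CPM in endoderm-like cells, against 14.5 and 181 CPM in naive-like cells. Of the pair that starts the alpha ring, Psmg2 differed by -1.27, with medians of 70.1 and 132 CPM in endoderm-like and naive-like cells, and Psmg1 by -1.07, with medians of 68.5 and 82.0 CPM. Psme3 differed by -1.04, with medians of 29.3 and 71.4 CPM. Its difference was no longer past 1 with scran scaling, which left 5 lower genes, against 15.8% of all genes.

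Psmd9, another ATPase ring chaperone, was the gene with the higher mean, at 1.25. It had 0.12 CPM in the lowest, 76.4 CPM in the median and 285 CPM in the highest endoderm-like cell, against 0.30, 26.2 and 173 CPM in naive-like cells. Psmd10, another of these chaperones, differed by 0.71, with medians of 103 and 62.6 CPM. The meiotic gene Psmc3ip differed by -1.99, with medians of 28.1 CPM in endoderm-like and 52.2 CPM in naive-like cells, and it overlaps Mlx on the other strand.

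**Figure D4:**
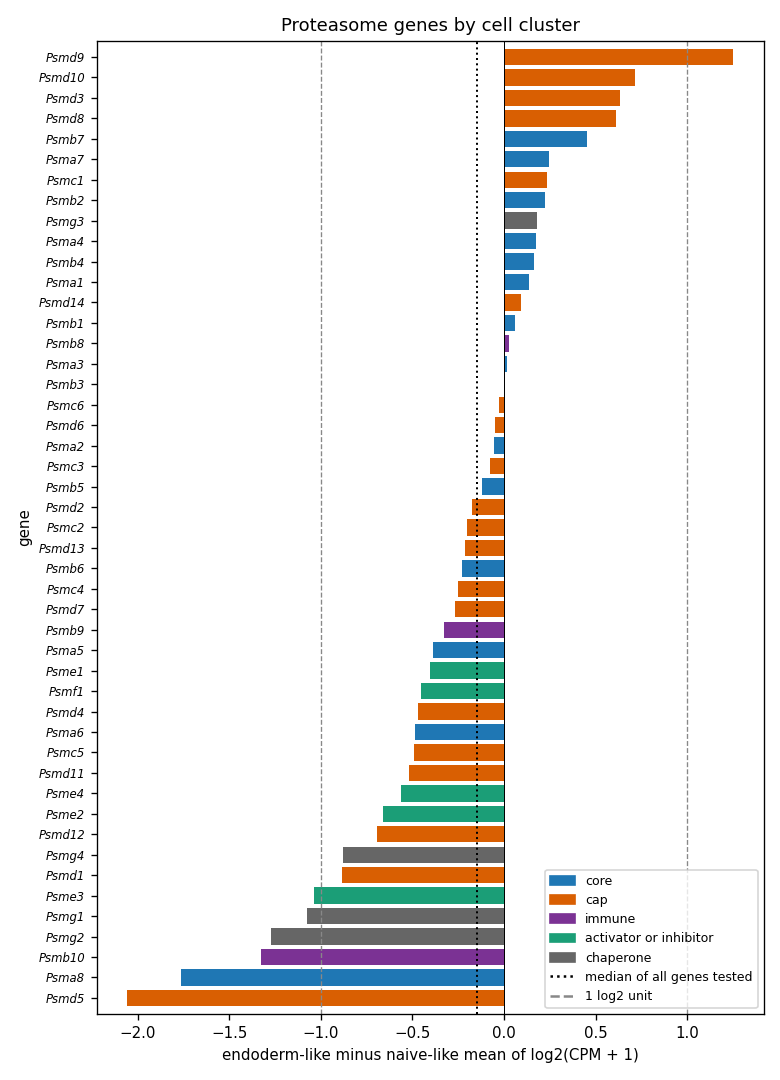
Difference between clusters for the 47 proteasome genes, as endoderm-like minus naive-like mean of log2(CPM + 1) on the x axis, with genes on the y axis and bars coloured by class; the dotted line is the median of all genes tested and dashed lines mark 1 log2 unit. Psmd9 is past 1 on the higher side and Psmd5, Psma8, Psmb10, Psmg2, Psmg1 and Psme3 on the lower side.

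In a division made after the clusters were seen, the 13 endoderm-like cells were split into 5 without and 8 with detected Pou5f1. Psmd5 had a median of 15.4 CPM in the 5 cells, 70.9 CPM in the 8 and 207 CPM in naive-like cells. Psmg2 had medians of 15.3, 72.9 and 132 CPM, Psmg1 of 9.32, 70.3 and 82.0 CPM and Psmb10 of 10.7, 61.8 and 81.2 CPM, in the same order. The medians of the cells with Pou5f1 thus lay between those of the other groups for these 4 genes, but single cells overlapped. Psmb10, for example, had 0.55 to 49.9 CPM in the 5 cells and 13.5 to 201 CPM in the 8. Against naive-like cells, the 8 cells differed by -1.37 for Psmd5, -0.54 for Psmb10, -0.43 for Psmg2 and -0.17 for Psmg1. Psmd9 had medians of 54.0 CPM in the 5 cells, 93.3 CPM in the 8 and 26.2 CPM in naive-like cells. With the 5 cells alone set against naive-like cells, 9 genes were lower past 1 log2 unit, against 24.9% of all genes. Psmd5 then differed by -3.15, Psmg2 by -2.61, Psmb10 by -2.59 and Psmg1 by -2.52. The higher gene was then Psmd10 (1.25), against 20.8% of all genes, and Psmd9 differed by 0.77.

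Correlations across cells were computed among the 35 naive-like cells and describe cells that share a depth correction and may share a chip and a culture. Over 595 pairs of core and cap genes the median Spearman correlation was 0.19, against 0.00 over all pairs of genes tested, and 468 pairs were above 0. Under the main scaling, part of that gap went with level. Among genes with a mean log2 level of at least 8 the medians were 0.27 for core and cap genes and 0.20 for all genes. Core genes with each other had a median of 0.27, cap genes with each other 0.15 and core with cap genes 0.20. The summed levels of core and cap genes per cell, per kb of exon, had a Pearson correlation of 0.81 and a Spearman correlation of 0.77. Both sums are divided by the same scaled total of a cell, which can itself raise these values. They were not computed under other scaling or for other sets of genes.

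The pairwise correlations depended on scaling. The median over core and cap pairs was 0.08 with library size scaling, 0.10 with scran factors, 0.14 with DESeq2 poscounts factors and 0.08 in thinned cells, against 0.01, 0.01, 0.00 and 0.00 over all pairs. Among genes with a mean log2 level of at least 8, core and cap medians were 0.10, 0.15, 0.20 and 0.11 in that order. Over all pairs of such genes they were 0.01, 0.04, 0.13 and 0.05, so the part that went with level also depended on scaling. Without cell 12 the median over all core and cap pairs was 0.19.

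The highest correlation was that of Psma7 with Psma5, 0.73, 2 alpha subunits. Psma2 with the ATPase gene Psmc4 had 0.70 and Psmb5 with Psmb2 0.69. The lowest was that of Psmd3 with Psmb1, -0.48. Psma4 and Psma5 had the highest median correlation with the other core and cap genes, 0.37 each, while Psmd5, Psmd9 and Psmd10 had medians of 0.02, -0.02 and 0.05.

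Psmb8 and Psmb9 correlated at 0.68, a value that rests on few cells with reads, and at 0.60 over 34 cells without cell 11 or without cell 12. Without both, 1 naive-like cell with 1 read of Psmb8 is left, and no value is given. Psmb9 with Psme2 had 0.48, and 0.34 over 33 cells without both, and Psmb10 with Psme2 had 0.41, and 0.30 without both. Psme1 with its partner Psme2 had 0.24, and 0.17 without both. Psmb10 had a median of 0.17 with the core and cap genes, Psmb9 0.00 and Psmb8 -0.05.

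**Figure D5:**
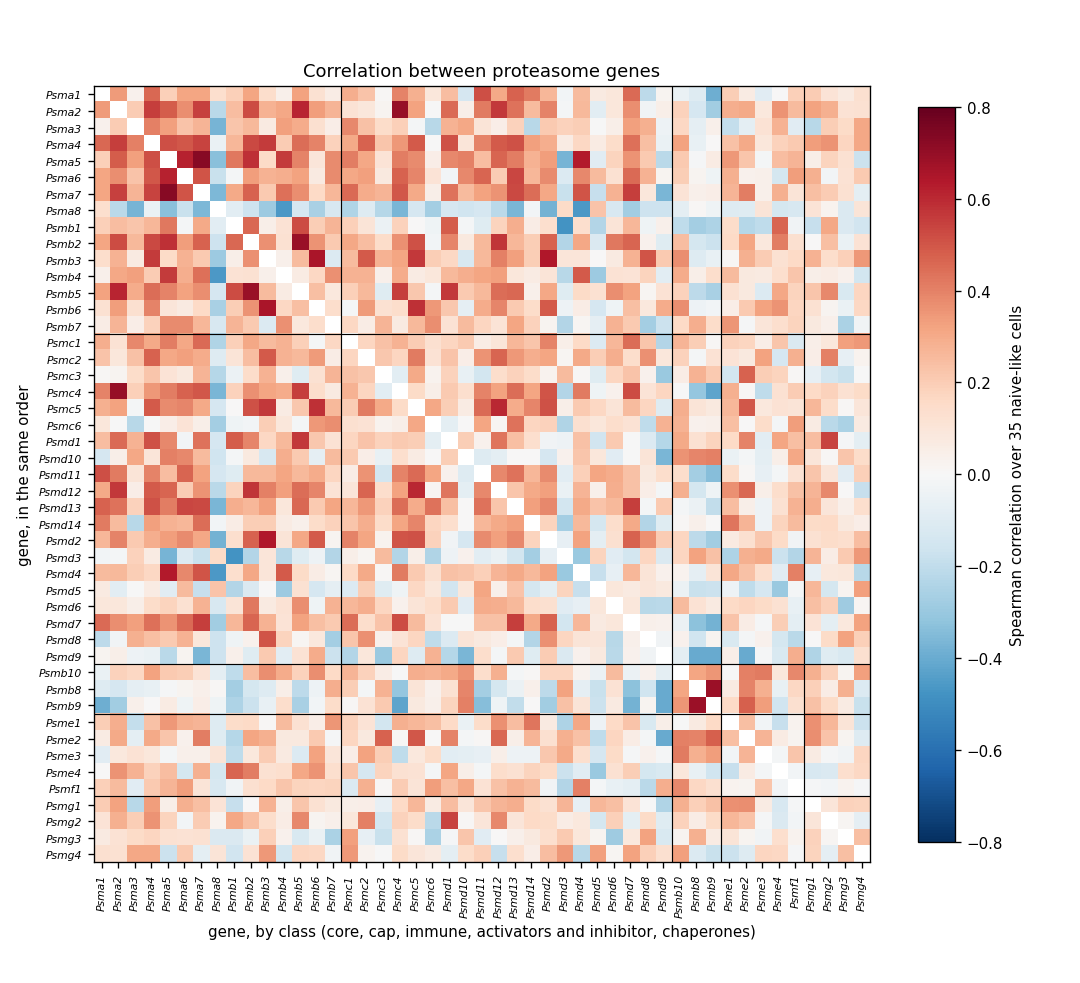
Spearman correlation between proteasome genes over 35 naive-like cells, with genes on both axes in the same order by class and black lines between classes; red is positive, blue negative and the diagonal is blank. Most core and cap pairs are positive, up to 0.73 for Psma7 with Psma5, and the row of Psma8 is mostly negative.

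Other genes of the pathway were described in the same way. Of 23 tested partners (ubiquitin genes, shuttles, deubiquitinases and assembly factors), 0 were called variable by modelGeneVar and by the squared coefficient of variation, with 1 (Uba1) at an unadjusted p under 0.05 by modelGeneVar. Past 1 log2 unit, 3 were higher in endoderm-like cells, near the 15.9% of all genes, and 1 was lower, against 16.5%, and their median difference was 0.01. Ubqln2, a shuttle that carries ubiquitinated proteins to the cap, was between 9.05 and 143 CPM in endoderm-like cells, against 0 to 81.7 CPM in naive-like cells, a difference of 3.01. Ufd1l, a cofactor of the unfoldase Vcp, differed by 1.39, and AI314180, the mouse gene of the proteasome scaffold Ecm29, by 1.14. Uchl5, a deubiquitinase of the cap, differed by -1.06. The assembly factor Pomp was even, with 136 to 705 CPM over all cells.

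Of 13 tested regulators of proteasome gene transcription, 0 were called variable by modelGeneVar and by the squared coefficient of variation, with 0 at an unadjusted p under 0.05 by modelGeneVar, and 2 had higher means in endoderm-like cells past 1 log2 unit, Mafk (2.27) and Maff (1.16), a share near the 15.9% of all genes. Nfe2l1, the factor known to raise proteasome genes when the proteasome is inhibited, had 17.0 to 264 CPM in endoderm-like cells, against 1.92 to 321 CPM in naive-like cells. Nfe2l2 had 30.3 to 388 CPM in endoderm-like cells, against 6.34 to 349 CPM in naive-like cells.

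Of 13 tested genes of class I presentation and interferon response, 0 were called variable by modelGeneVar, with 0 at an unadjusted p under 0.05, and 2 by the squared coefficient of variation, B2m and Irf1, against 6.22% of all genes. Past 1 log2 unit, 5 were higher in endoderm-like cells, against 15.9% of all genes, and 1 was lower, against 16.5%. B2m, the light chain of class I molecules, had 75.6 to 795 CPM in endoderm-like cells, against 0.15 to 109 CPM in naive-like cells, a difference of 3.89. H2-D1, a heavy chain, differed by 2.35, the interferon gamma receptor genes Ifngr1 and Ifngr2 by 2.53 and 1.72, and the kinase gene Jak1 by 1.34. H2-K1, another heavy chain, differed by -1.11 and had at most 1.43 CPM in endoderm-like cells, against up to 179 CPM in naive-like cells. The differences of B2m and of Psmb10 thus had opposite signs, and Tap1, Tap2 and Irf2 were too low to be tested.

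Lanes of a cell were repeat reads of 1 library. A chi-square test of counts in lanes called 0 of 47 proteasome genes, and 0% of 14712 genes tested. At an unadjusted p under 0.05 there were 3 of these genes (Psmd10, Psma7 and Psmd5) and 698 of all genes, and the chi-square per degree of freedom had a median of 1.06 over the 47 genes.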

How the data were processed

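Messenger RNA of 48 cells was amplified with the SMARTer kit and sequenced from Nextera XT libraries, per the labels' protocols. The authors deposited 1 table of whole-number read counts per gene and lane, with no normalization. Per the submitters' processing notes, the tools were featureCounts, Subread 1.4.5-p1 and STAR 2.3.1z12, and the build was mm9; their settings are not given in the sources used here. Lanes were summed, and 25 rows with date-like names were kept.

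Counts were scaled with edgeR 4.0.16 (TMMwsp) in R 4.3.3 and taken as log2(CPM + 1). Variance was tested with modelGeneVar of scran 1.30.0 over the 11746 genes that averaged 10 reads or more, and DESeq2 1.42.0 gave alternative factors. The variance test and the cluster difference were run on simulated counts, with the clusters taken as given. How many planted variable genes were recovered is not reported here. Alternative factors, clustering and correlations were not tested in this way. Cells were clustered by Ward linkage of 5 principal components from the 500 most variable genes, leaving out Psm rows and the described gene lists. Exon lengths came from GENCODE M21 and promoters from RefSeq, both on GRCm38, and no coordinates of the counts were used.

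Values are given for catalytic and immune subunits, activators, inhibitor, chaperones, extremes of level, variance and correlation, and genes past 1 log2 unit between clusters; other named genes were chosen after their values were seen. The proteasome genes and gene lists were chosen with earlier results of these data known. A planned comparison of protein sequences was not run.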

Additional observations from a re-analysis of the deposited data

How the results depend on the processing

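Under 16 other settings of the variance test (scaling, pseudocount, count filter, thinning, single lanes, left-out cells), the number of proteasome genes called was 0 except in 2 of them. It was 2 among naive-like cells alone and 2 among naive-like cells without cell 12, in each case Psma4 and Psmc2. The adjusted p of Psmd5 from modelGeneVar and its alternatives lay between 0.0851 and 0.897. With a pseudocount of 10 CPM the number of genes past 1 log2 unit between clusters was 0 higher and 2 lower, and the cause was not tested. Clusters made from 1000 genes assigned all 48 cells alike. Cells 11, 12 and 44, the cells with Pou5f1 and coding length were chosen as alternatives after seeing the data.

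No paired analysis was possible because all cells form 1 group. Outlying values were not tested by group, since every group held more than 10 cells. Intervals cover counting error only, because reads carried no molecular identifiers. The table gives no strand, how reads that match several places were counted is not given in the sources used here, and exon lengths come from a newer build than the counts. At means near 10 reads per cell, a gene such as Psmb8 is decided by a few cells.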
